A study of Mus musculus with 12 samples.

Results

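The Ighv1 family, also called J558, is the largest group of heavy chain variable (VH) segments of the mouse immunoglobulin locus. Its members were taken as every row of the deposited count table whose Entrez ID carries a symbol beginning with Ighv1-, which gave 60 of 27179 rows and 60 of the 120 rows of VH segments (Ighv). They lie on the minus strand of chromosome 12 between positions 114487136 and 116009954 (GRCm38). The counted length of a member was between 282 and 457 bases, and 43 of the 60 had exactly 294.

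The libraries were polyA RNA sequencing of sorted C57BL/6 mouse B cells, in 6 groups of 2 pools, each pool made from 2 to 8 mice. Myb knockout germinal centre (GC) B cells carried Myb fl/fl with CD23-cre T/+ and Myb control GC B cells carried Myb fl/fl without cre, both sorted on day 12 after NP-KLH in alum. Myb knockout and Myb control plasmablasts (PB) had those same genotypes and were sorted on day 5 after a boost with NP-KLH in PBS. Moz knockout GC B cells carried Moz fl/fl with AID-cre T/+ and Moz control GC B cells carried AID-cre T/+ alone, both sorted on day 7. CD23-cre acts in mature B cells and AID-cre in activated B cells. Only the Myb knockouts carry CD23-cre, so the presence of cre and the loss of Myb cannot be told apart. Pools with the same number within an experiment share an experiment date, while the PB and GC pools were sorted on different dates.

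A B cell builds the variable region of its heavy chain by joining 1 VH segment to a D and a J segment, so each cell and its descendants transcribe mainly the VH segment they chose. Read counts over VH segments therefore follow both which clones are present and how much heavy chain RNA each cell makes. NP is a hapten, and in C57BL/6 mice much of the antibody against it uses the Ighv1-72 segment, long known as V186.2, joined to a lambda1 light chain. In these bulk samples, fewer cells using a segment and less RNA per cell cannot be told apart.

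The reference sequence of Ighv1-72 is shown because the NP response turns on it, with the codons of its complementarity-determining regions 1 and 2 in capitals. The next sequences are those of the other members that the group comparisons turn on and of Ighv1-53, a frequent segment that is close to Ighv1-72. In these, capitals mark the bases that differ from Ighv1-72. All are the V region, 5′ to 3′, from the GENCODE M21 transcripts (GRCm38), and all are on the minus strand. Ighv1-72 lies at chr12:115757984-115758277, Ighv1-62-3 at chr12:115460999-115461292 and Ighv1-71 at chr12:115742213-115742506. Ighv1-53 lies at chr12:115158403-115158696, Ighv1-15 at chr12:114657353-114657646 and Ighv1-54 at chr12:115193675-115193968.
Ighv1-72: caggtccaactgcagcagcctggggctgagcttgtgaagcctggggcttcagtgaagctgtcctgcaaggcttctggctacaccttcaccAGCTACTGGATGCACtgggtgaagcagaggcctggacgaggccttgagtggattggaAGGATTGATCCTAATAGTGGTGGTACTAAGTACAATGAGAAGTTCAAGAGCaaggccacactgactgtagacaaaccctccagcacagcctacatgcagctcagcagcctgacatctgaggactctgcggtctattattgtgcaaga
Ighv1-62-3: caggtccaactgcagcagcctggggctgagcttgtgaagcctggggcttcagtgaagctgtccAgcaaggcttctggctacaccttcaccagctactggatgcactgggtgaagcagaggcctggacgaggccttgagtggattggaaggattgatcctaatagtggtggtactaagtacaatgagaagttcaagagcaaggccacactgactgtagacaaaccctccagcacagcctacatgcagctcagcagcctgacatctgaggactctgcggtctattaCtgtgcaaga
Ighv1-71: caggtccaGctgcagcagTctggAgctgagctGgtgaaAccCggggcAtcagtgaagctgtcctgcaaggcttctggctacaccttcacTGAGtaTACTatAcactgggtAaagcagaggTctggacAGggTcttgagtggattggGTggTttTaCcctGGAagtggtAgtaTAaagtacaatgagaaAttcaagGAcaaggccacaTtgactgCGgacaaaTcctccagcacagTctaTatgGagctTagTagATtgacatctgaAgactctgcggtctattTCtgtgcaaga
Ighv1-53: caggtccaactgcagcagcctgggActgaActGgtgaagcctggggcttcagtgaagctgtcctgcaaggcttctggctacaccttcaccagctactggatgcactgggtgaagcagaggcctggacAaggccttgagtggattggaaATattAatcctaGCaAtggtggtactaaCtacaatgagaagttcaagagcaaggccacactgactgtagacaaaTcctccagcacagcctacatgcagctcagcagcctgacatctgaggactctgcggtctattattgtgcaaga
Ighv1-15: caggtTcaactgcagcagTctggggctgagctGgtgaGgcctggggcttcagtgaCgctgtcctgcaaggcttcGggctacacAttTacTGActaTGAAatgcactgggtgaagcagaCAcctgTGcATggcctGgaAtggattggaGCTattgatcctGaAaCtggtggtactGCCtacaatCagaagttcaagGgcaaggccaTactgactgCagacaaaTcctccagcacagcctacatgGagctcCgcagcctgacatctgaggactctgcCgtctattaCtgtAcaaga
Ighv1-54: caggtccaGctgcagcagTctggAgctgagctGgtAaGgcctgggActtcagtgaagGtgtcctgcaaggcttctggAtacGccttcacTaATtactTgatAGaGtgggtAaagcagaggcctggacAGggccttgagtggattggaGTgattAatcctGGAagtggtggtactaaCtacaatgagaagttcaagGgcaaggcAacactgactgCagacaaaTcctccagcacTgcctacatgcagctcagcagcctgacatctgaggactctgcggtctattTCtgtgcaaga

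Ighv1-62-3 differs from Ighv1-72 at 2 bases, an identity of 99.3%. Ighv1-53 differs at 12 bases, Ighv1-54 at 34, Ighv1-15 at 42 and Ighv1-71 at 49. The other members closest to Ighv1-72 were Ighv1-64 with 95.9% identity, Ighv1-55 with 94.6%, and Ighv1-69 and Ighv1-74 with 93.2% each. Across the other Ighv1 members, the identity to Ighv1-72 had a median of 86.1%. The nearest Ighv1 members beside Ighv1-72 on the chromosome, Ighv1-71 and Ighv1-73, were 83.3% and 86.8% identical to it.

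Such similarity limits which segment a short read can be given to. Of the 245 windows of 50 bases in Ighv1-72, 0 occur in no other of the 183 VH transcripts searched, against 20.4% of those in Ighv1-62-3. With windows of 100 bases the unique share was 35.4% in Ighv1-72 and 37.9% in Ighv1-62-3. Ighv1-71 and Ighv1-62-2 are identical over the V region and have no unique window of either length. The median member had 67.8% unique windows of 50 bases. The sources used here give neither the read length nor the treatment of reads that match several places. The split within each of these 2 pairs is uncertain, and their sums are given below beside the single values.

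**Figure D1:**
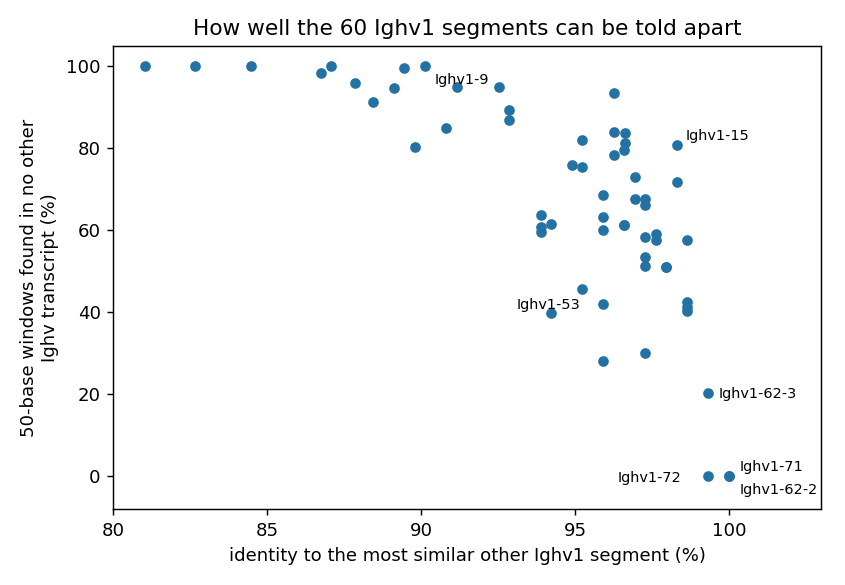
Identity of each of the 60 Ighv1 segments to its most similar other Ighv1 segment (x axis, percent) against the share of its 50-base windows found in no other VH transcript (y axis, percent); each point is a segment. Ighv1-72, Ighv1-71 and Ighv1-62-2 sit at 0% and Ighv1-62-3 at 20.4%.

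Library totals were 8285934 to 24801297 counts, and 2293 to 504862 of these per library were in Ighv1. Pools of a group differed far beyond counting noise, with a chi-square per degree of freedom over Ighv1 members of 4.97 to 1359, so counting intervals understate the error. The markers matched the labelled cell types, with a summed level of 8 GC B cell markers of 233 to 291 CPM (counts scaled to the library size after trimmed mean of M values, TMM, adjustment) in the 4 PB libraries and 1568 to 2456 CPM in the 8 GC libraries. A summed level of 6 plasmablast markers was 104336 to 143177 CPM in PB and 924 to 7128 CPM in GC B cells. The floxed genes themselves were counted at similar levels in both genotypes in GC B cells. In PB, Myb was lower in both knockout pools than in both control pools but was not called (log2 fold -0.49, SE 0.29). Myb had 13.0 and 11.6 CPM in Myb knockout GC and 14.0 and 11.5 CPM in Myb control GC, and 3.11 and 3.10 CPM in Myb knockout PB and 4.13 and 4.64 CPM in Myb control PB. Kat6a, the Moz gene, had 66.4 and 93.7 CPM in Moz knockout GC and 82.0 and 73.4 CPM in Moz control GC. A count over the whole gene does not show whether a floxed part was lost, so these values do not check the labels, and knockout and control below are the names the labels give.

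Ighv1 supplied about as many VH counts as all other families together in both Myb GC groups and in Myb knockout PB. On average it supplied more in Myb control PB and fewer in both Moz groups. The Ighv1 share of VH counts was 50.3% and 50.9% in Myb knockout GC, against 50.7% and 45.1% in Myb control GC. In plasmablasts it was 44.5% and 48.7% in Myb knockout pools, against 54.4% and 61.6% in Myb control pools. In the Moz experiment it was 40.1% and 32.2% in Moz knockout GC, against 51.6% and 30.4% in Moz control GC. The Myb knockout and control PB pools did not overlap, and both GC comparisons did.

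The Ighv1 share averaged 46.6% ± 2.93 in Myb knockout PB and 58.0% ± 5.10 in Myb control PB (SD, n = 2 each), a difference of -11.4 percentage points. A two-sided exact permutation test gave p = 0.33 for it, which is the smallest p that 2 against 2 pools allow. The differences were 2.69 points for Myb knockout against control GC (p = 0.667, same exact test) and -4.82 points for Moz knockout against control GC (p = 1.0, same exact test). Without Myb control pool 2 the Myb GC difference was -0.139 points, and without Myb control pool 1 it was 5.51 points. Without Moz control pool 1 the Moz difference was 5.78 points, and without Moz control pool 2 it was -15.4 points. Control PB exceeded control GC by 10.1 points, and Myb knockout PB differed from Myb knockout GC by -3.98 points, or by -1.91 points without knockout PB pool 1 and -6.06 without knockout PB pool 2.

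Other families filled the rest. In the Moz experiment the Ighv14 family held 31.1% and 42.2% of VH counts in knockout GC and 18.7% and 46.6% in control GC, so that it outweighed Ighv1 in pool 2 of both genotypes. In Myb knockout PB pool 1, where Ighv1 was lowest among the PB pools, the Ighv2 family held 17.8%, against 4.94% to 6.98% in the other PB pools.

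**Figure D2:**
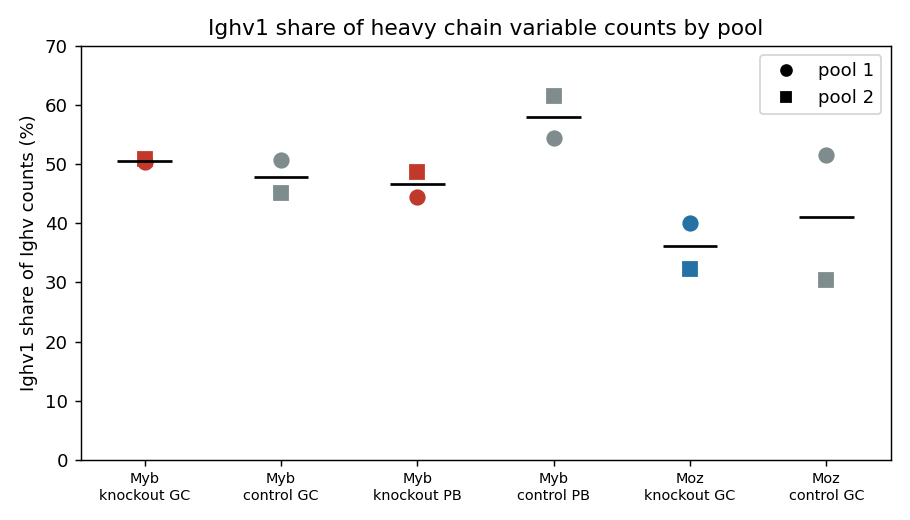
Ighv1 share of all VH counts (y axis, percent) for the 2 pools of each of the 6 groups (x axis); circles are pool 1, squares pool 2 and lines the group mean. The Myb knockout PB pools at 44.5% and 48.7% lie below the Myb control PB pools at 54.4% and 61.6%, and the Moz control pools lie farthest apart.

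The level of Ighv1 differed most between cell types. Summed over members it was 498 and 419 CPM in Myb knockout GC, 194 and 185 CPM in Myb control GC, 50254 and 31814 CPM in Myb knockout PB, and 45342 and 42520 CPM in Myb control PB. In Moz knockout GC it was 811 and 974 CPM, against 882 and 474 CPM in Moz control GC. Both Myb knockout GC pools exceeded both control pools, while the PB and the Moz pools overlapped. The VH segments outside Ighv1 had 492 and 404 CPM in Myb knockout GC and 189 and 225 CPM in Myb control GC.

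Within the family, 8 segments made up the 5 largest members of every group. By mean share of VH counts, Ighv1-22, Ighv1-53 and Ighv1-64 were among the 5 largest in 5 of the 6 groups, Ighv1-26 and Ighv1-80 in 4, Ighv1-9 and Ighv1-55 in 3, and Ighv1-78 in 1. Their counted lengths were 294 or 309 bases, and dividing by length kept all 5 names in 5 groups and 4 of 5 in Myb control PB. The 5 largest of a library together held 30.6% to 42.3% of its Ighv1 counts, and between 54 and 59 members had at least 1 count.

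Ighv1-64 led in Myb knockout GC with 4.96% and 4.03% of VH counts, against 3.06% and 2.18% in Myb control GC. Ighv1-22 led in Myb control GC with 6.45% and 4.13%, against 1.47% and 2.00% in Myb knockout GC, and the pools did not overlap for either segment. In plasmablasts Ighv1-22 held 3.97% and 2.39% in Myb knockout pools and 4.71% and 4.73% in Myb control pools. Over the 119 VH rows with any count, 23.5% had lower shares in both Myb knockout GC pools than in both control GC pools and 22.7% had higher ones, and for Ighv1 it was 15 of 59 each.

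Some of the large members were large in 1 pool. Ighv1-9 held 5.29% and 3.10% of VH counts in Myb knockout PB and 1.56% and 11.1% in Myb control PB. Ighv1-80 held 2.33% and 2.02% in Moz knockout GC and 6.91% and 0.445% in Moz control GC, a 15.5-fold gap between the control pools. Among members with at least 40 counts over the 2 pools, the median gap between pools was between 1.20-fold in Myb control PB and 1.73-fold in Moz control GC, and 4 to 19 members per group differed more than 2-fold. Ighv1-53 was steadier, with 3.09% and 4.03% in Myb knockout PB and 3.36% and 4.88% in Myb control PB.

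Despite these gaps the order of members was much alike everywhere. Spearman's rho between the shares of the 60 members in pool 1 and pool 2 was 0.93 to 0.96 in the 6 groups, and 0.91 between the mean shares of Myb knockout PB and Myb control PB. These describe members that share the same libraries, lengths and mappability. The share of unique 50-base windows had rho = 0.22 with the mean share in Myb control GC and 0.14 with that in Myb control PB.

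**Figure D3:**
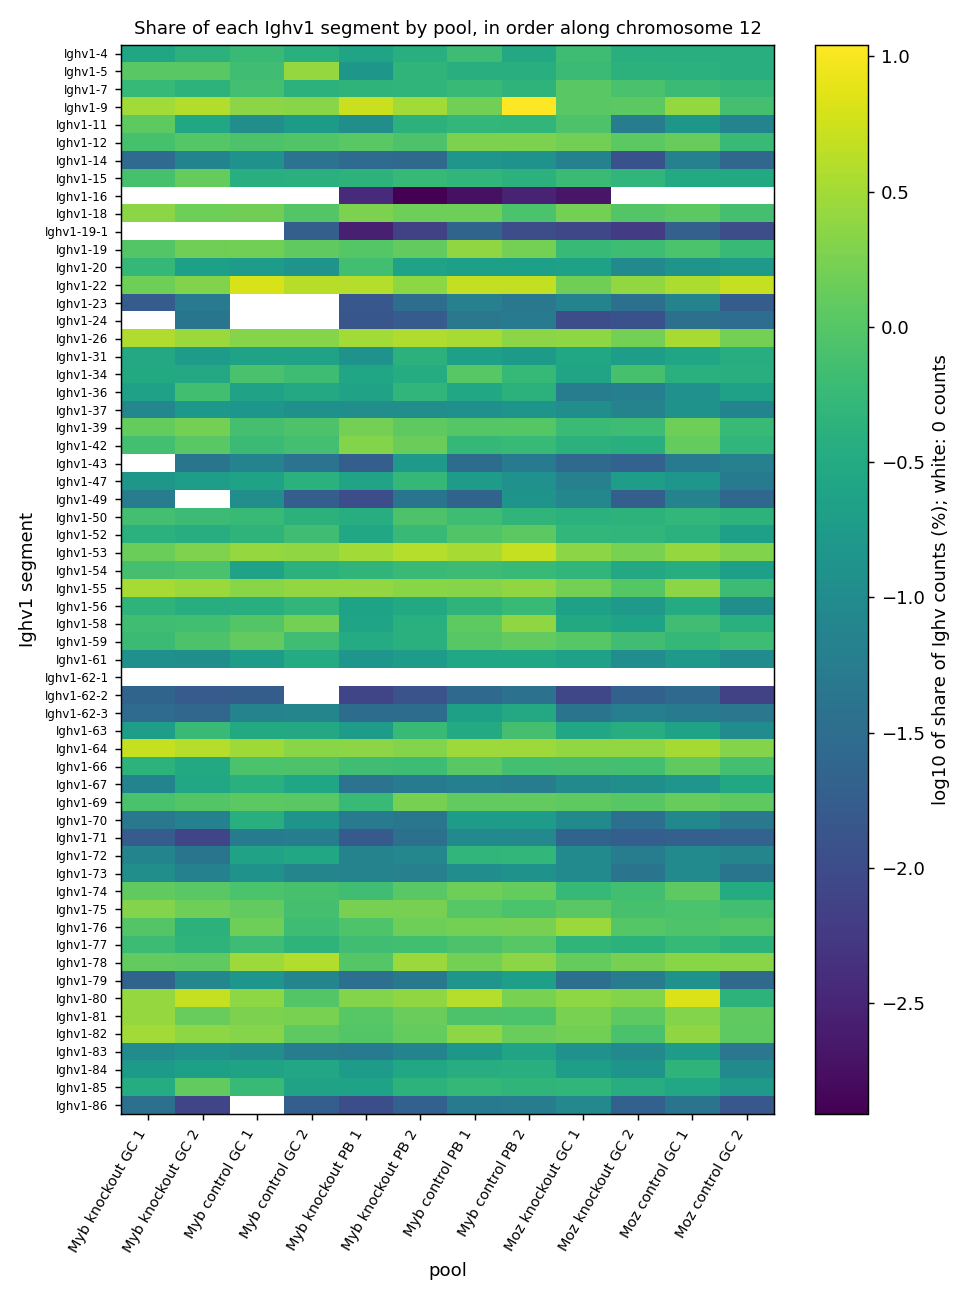
Share of VH counts (log10 of percent, colour) of each of the 60 Ighv1 segments (rows, in order along chromosome 12) in the 12 pools (columns, knockout before control); white marks a count of 0. Ighv1-62-1 is white throughout, and Ighv1-9 in Myb control PB pool 2 is the brightest cell at 11.1%.

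The comparisons of single members used edgeR's quasi-likelihood test over 13131 genes, in which 59 Ighv1 members were tested. Ighv1-62-1 had 0 counts in all 12 libraries and was not tested. With few pools per group, the spread was estimated from the pools of all 6 groups and moderated across genes. The p-values set a difference against that shared spread, which can differ from the spread of the pools compared. A second fit added the experiment date as a block, since the labels tie same-numbered pools to a shared date. Its calls are given beside those of the fit without it wherever they differ.

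In plasmablasts, Ighv1-72 and its near copy Ighv1-62-3 were lower in the Myb knockout. Ighv1-72 had 619 and 475 counts in Myb knockout PB, against 4492 and 2809 in Myb control PB. As scaled levels these were 80.3 and 54.5 CPM in Myb knockout PB and 403 and 353 CPM in Myb control PB, so the groups lay far apart. Its level fell by 2.49 on the log2 scale (SE 0.26, edgeR adjusted p = 0.0123). The knockout to control ratio was 0.199 between the pools numbered 1 and 0.155 between those numbered 2. Ighv1-62-3 had 34.3 and 20.4 CPM in Myb knockout PB, against 181 and 205 CPM in Myb control PB, and fell by 2.82 (SE 0.32, edgeR adjusted p = 0.0136). Together the pair held 0.102% and 0.115% of VH counts in Myb knockout PB, against 0.701% and 0.808% in Myb control PB.

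Ighv1-71, which neighbours Ighv1-72 on the chromosome but shares 0 of its windows of 50 bases with it, moved the same way. It had 18.4 and 23.0 CPM in Myb knockout PB and 77.4 and 61.0 CPM in Myb control PB, and fell by 1.74 (SE 0.21, edgeR adjusted p = 0.0167). Its sum with the identical Ighv1-62-2 was 0.0246% and 0.0476% of VH counts in Myb knockout PB, against 0.121% and 0.125% in Myb control PB. Ighv1-73, on the other side of Ighv1-72, averaged 0.0686% in Myb knockout PB and 0.117% in Myb control PB and was not called.

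These 3 were the only Ighv1 members called in PB in that fit, which called 0.0305% of all tested genes lower and 0.00762% higher. Of the 59 members, 41 had a negative and 18 a positive log2 fold, with a median of -0.36, beside 0.23 for the 58 other VH segments and 0.01 for all genes. By share of VH counts, 34 of 59 Ighv1 members were lower in both Myb knockout PB pools than in both control pools and 7 were higher, where over the 119 VH rows it was 37.0% lower and 15.1% higher. Most frequent members did not pass the test. Ighv1-53 had a log2 fold of -0.01 (SE 0.26), Ighv1-22 one of -0.25 (SE 0.49) and Ighv1-9 one of -0.16 (SE 0.75).

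Each of the PB calls ended when Myb control pool 1, Myb control pool 2 or Myb knockout pool 2 was left out, with edgeR adjusted p = 0.0542, 0.0541 and 0.0661 for Ighv1-72 and log2 folds of -2.39, -2.57 and -2.25. Ighv1-71 was also not called without Myb knockout pool 1 (edgeR adjusted p = 0.255), where Ighv1-72 and Ighv1-62-3 were (0.0405 each, edgeR). With edgeR's fit limited to the 4 PB libraries, the adjusted p of Ighv1-72 was 0.437.

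With the date as a block, edgeR called 9 Ighv1 members lower and 2 higher in Myb knockout PB, while 0.366% of all tested genes were lower and 0.213% higher. Besides Ighv1-72 (log2 fold -2.51, SE 0.15), Ighv1-62-3 and Ighv1-71, the lower ones were Ighv1-14, Ighv1-70, Ighv1-86, Ighv1-59, Ighv1-24 and Ighv1-49. Without Myb control pool 2, and without the block, Ighv1-49 had a log2 fold of 0.076. Ighv1-14 had 33.9 and 18.9 CPM in Myb knockout PB and 117 and 88.4 CPM in Myb control PB, and fell by 1.99 (SE 0.18, edgeR adjusted p = 0.000401). Ighv1-59 had 378 and 257 CPM in Myb knockout PB and 856 and 850 CPM in Myb control PB, and fell by 1.45 (SE 0.18, edgeR adjusted p = 0.00376). For both segments the knockout pools lay below the control pools. The higher ones were Ighv1-75, with a log2 fold of 1.06 (SE 0.14), and Ighv1-18, with 0.73 (SE 0.14). Without the block, Ighv1-18 had a log2 fold of 0.13 without Myb knockout pool 1 and of 1.35 without Myb control pool 1. Ighv1-49 had -2.27 without Myb control pool 1 and -2.26 without Myb knockout pool 2.

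The summed level of the lambda light chain genes lay lower in Myb knockout PB too, and the Ighv1-72 antibodies to NP use lambda1 among them. Singly, Iglv1, Iglv2 and Iglc1 were lower in both knockout pools than in both control pools, while Iglv3, Iglc2 and Iglc3 overlapped. The 6 lambda genes summed to 85822 and 122628 CPM in Myb knockout PB and 210112 and 254881 CPM in Myb control PB. None of the 6 was called without the block (median log2 fold -0.46), and with it edgeR called 2 of 6 lower. These were Iglv1, the lambda1 variable segment (log2 fold -1.36, SE 0.17, edgeR adjusted p = 0.00376), and Iglc1, its constant region (-1.49, SE 0.20, edgeR adjusted p = 0.00472). The kappa constant gene Igkc had 317019 and 376228 CPM in Myb knockout PB and 175969 and 249495 CPM in Myb control PB and was not called (log2 fold 0.70, SE 0.38). Among the 8 heavy chain constant genes, none was called without the block. With it Ighg1, the IgG1 constant region, fell by 2.19 (SE 0.23, edgeR adjusted p = 0.00116) and Ighe, that of IgE, by 0.85 (SE 0.16, edgeR adjusted p = 0.0425). Ighm, the IgM constant region, had 740408 and 700287 CPM in Myb knockout PB and 398179 and 410468 CPM in Myb control PB and was not called (log2 fold 0.83, SE 0.33). Ighg2c, the IgG2c constant region, had 40318 and 81908 CPM in Myb knockout PB and 20078 and 22206 CPM in Myb control PB. Igha, that of IgA, was lower in both knockout pools than in both control pools. Neither Ighg2c nor Igha was called, and Ighd, Ighg2b and Ighg3 overlapped. The part of isotype and light chain in the Ighv1-72 difference was not tested.

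**Figure D4:**
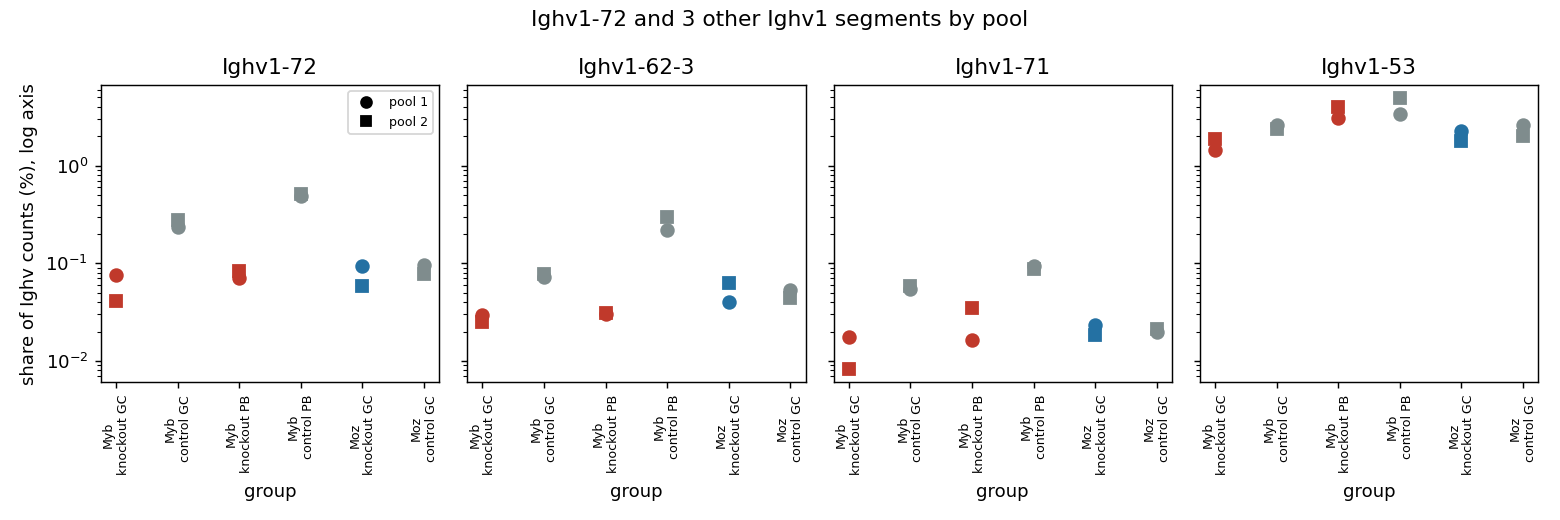
Share of VH counts (y axis, percent, log axis) of Ighv1-72, Ighv1-62-3, Ighv1-71 and Ighv1-53 in the 2 pools of each group (x axis); circles are pool 1 and squares pool 2. Ighv1-72 lies at 0.0712% and 0.0834% in Myb knockout PB and at 0.484% and 0.511% in Myb control PB, while the knockout and control points of Ighv1-53 in PB overlap.

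In GC B cells of the Myb experiment the counts of Ighv1-72 were low. It had 13 and 5 counts in Myb knockout GC and 13 and 14 counts in Myb control GC, or 0.754 and 0.342 CPM in Myb knockout GC and 0.908 and 1.13 CPM in Myb control GC. Its level did not pass the test (log2 fold -0.85, SE 0.44, edgeR adjusted p = 1.0). As a share of VH counts it was 0.0761% and 0.0416% in Myb knockout GC, against 0.237% and 0.275% in Myb control GC, and the groups did not overlap. Summed with Ighv1-62-3, the share was 0.105% and 0.0666% in Myb knockout GC and 0.310% and 0.354% in Myb control GC.

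With library sizes set to the total VH count, Ighv1-72 had a log2 fold of -2.08 in Myb knockout against control GC (SE 0.56, edgeR adjusted p = 0.0178) and -2.69 in Myb knockout against control PB (SE 0.44, edgeR adjusted p = 0.0266). That scaling moved the median of all genes by -1.18 in GC and by -0.12 in PB. In GC it called 64.3% of all tested genes lower, which makes the adjustment lenient, and in PB 0.0228%. The difference between the Myb effects in PB and GC was not called for Ighv1-72 on either scale, with -1.64 (SE 0.53, edgeR adjusted p = 0.892) under TMM and -0.60 (SE 0.70, edgeR adjusted p = 0.485) under the VH total.

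Relative to all genes, many Ighv1 segments had higher values in Myb knockout GC. Of the 59 tested, 48 had a positive and 10 a negative log2 fold, with a median of 1.02, beside 1.17 for the 58 other VH segments and 0.00 for all genes. Scaled CPM was higher in both knockout pools than in both control pools for 37 of 59 members, against 13.8% of all tested genes, and lower for 4 of 59, against 11.8%. Several rare members rested on few counts. Ighv1-23 had 3 and 6 counts and Ighv1-24 had 0 and 5 in Myb knockout GC and neither had any in Myb control GC.

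Ighv1-15 and Ighv1-54 were called higher, while that fit called 0.236% of all tested genes higher and 0.0228% lower. Ighv1-15 had 134 and 153 counts in Myb knockout GC and 20 and 20 in Myb control GC, or 7.77 and 10.5 CPM in Myb knockout GC and 1.40 and 1.61 CPM in Myb control GC. It rose by 2.60 on the log2 scale (SE 0.31, edgeR adjusted p = 0.0141). Ighv1-54 had 129 and 98 counts in Myb knockout GC and 13 and 22 in Myb control GC, and rose by 2.42 (SE 0.40, edgeR adjusted p = 0.0391). The knockout pools of both segments lay above the control pools. In plasmablasts neither segment was called. There Ighv1-15 had 506 and 362 CPM in Myb knockout PB and 414 and 291 CPM in Myb control PB, and Ighv1-54 had 532 and 369 CPM in Myb knockout PB and 521 and 394 CPM in Myb control PB.

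The call of Ighv1-15 ended without Myb control GC pool 1 (edgeR adjusted p = 0.126) or pool 2 (0.223, edgeR), and that of Ighv1-54 ended without any 1 of the 4 pools (edgeR adjusted p = 0.0582 to 0.312). With edgeR's fit limited to the 4 GC libraries, the adjusted p of Ighv1-15 was 0.212. With library sizes set to the VH total, the folds of Ighv1-15 and Ighv1-54 were 1.44 and 1.24.

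With the date as a block, edgeR called 9 members higher and 0 lower in Myb knockout GC, where 2.03% of all tested genes were higher and 0.396% lower. Beside Ighv1-15 (log2 fold 2.58, SE 0.19) and Ighv1-54 (2.43, SE 0.28) these were Ighv1-75 (2.03, SE 0.18), Ighv1-82 (1.99, SE 0.22), Ighv1-64 (1.98, SE 0.36), Ighv1-36 (1.85, SE 0.25), Ighv1-26 (1.82, SE 0.32), Ighv1-18 (1.80, SE 0.17) and Ighv1-7 (1.00, SE 0.20). Without the block, the log2 fold of Ighv1-36 was 1.91, and 1.06 without Myb knockout pool 2. Relative to the VH total, 15 of 59 members were higher and 15 lower without overlap, and the family share was 50.3% and 50.9% in Myb knockout GC. With library sizes set to that total, 26 members had a positive and 32 a negative log2 fold, and edgeR called 2 higher and 6 lower, with 0.396% of all tested genes called higher and 64.3% lower. There Ighv1-7 had the opposite sign, -0.22.

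The summed level of the 6 plasmablast markers was 1310 and 1841 CPM in Myb knockout GC and 924 and 1474 CPM in Myb control GC, so the groups overlapped. Most of that sum was Jchain, with 1051 and 1537 CPM in Myb knockout GC and 770 and 1266 CPM in Myb control GC. Of the 6, 1 was called higher, Prdm1. Prdm1, the transcription factor of plasma cell differentiation, had 21.8 and 14.9 CPM in Myb knockout GC and 3.21 and 4.03 CPM in Myb control GC (log2 fold 2.34, SE 0.35, edgeR adjusted p = 0.0248). With the date block edgeR called 3 of 6 higher, the others being Sdc1, the surface proteoglycan CD138 (log2 fold 1.31, SE 0.27), and Irf4 (0.67, SE 0.15). Tnfrsf17, the BCMA receptor of plasma cells, had 0.580 and 0.342 CPM in Myb knockout GC and 0.629 and 0.887 CPM in Myb control GC and was not called. Xbp1 was not called either, with 171 and 233 CPM in Myb knockout GC and 111 and 168 CPM in Myb control GC. Singly, Prdm1, Sdc1, Irf4 and Xbp1 were higher in both knockout pools than in both control pools, and Tnfrsf17 was lower in both. Marker sums of naive B cells were 331 and 195 CPM in Myb knockout GC and 388 and 353 CPM in Myb control GC, and with the block 1 of 5, Fcer2a, was called lower (log2 fold -0.83, SE 0.16). Igkc, with 3515 and 3947 CPM in Myb knockout GC and 1481 and 1923 CPM in Myb control GC, was called higher only with the block (log2 fold 1.14, SE 0.21, edgeR adjusted p = 0.0164). So was Ighg2c, the IgG2c constant region, alone among the 8 heavy chain constant genes (log2 fold 2.31, SE 0.29, edgeR adjusted p = 0.00205). The part of these cells in the Ighv1 levels was not tested.

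The Myb effect in PB was set against that in GC as an interaction. Without the block edgeR called 0 of 59 members and 0.00762% of all tested genes. Its unadjusted p was under 0.05 for 26 of the 59 members and for 489 of all 13131 tested genes. DESeq2 called 8 members lower (0.282% of all tested genes lower and 0.0609% higher). With the block edgeR called 5 members, in each of which the log2 fold was lower in PB than in GC, while 0.48% of all tested genes were called lower and 0.0609% higher. These were Ighv1-82, Ighv1-54, Ighv1-15, Ighv1-59 and Ighv1-36. With the block, Ighv1-59 had a log2 fold of -1.45 in PB and was not called in GC, and the other 4 were called in GC and not in PB. Of the 8 heavy chain constant genes, Ighg1 had a called interaction with the block (-1.65, SE 0.31, edgeR adjusted p = 0.0444). The median interaction over the 59 members was -1.42 without the block, beside -0.80 for the other VH segments and -0.01 for all genes.

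**Figure D5:**
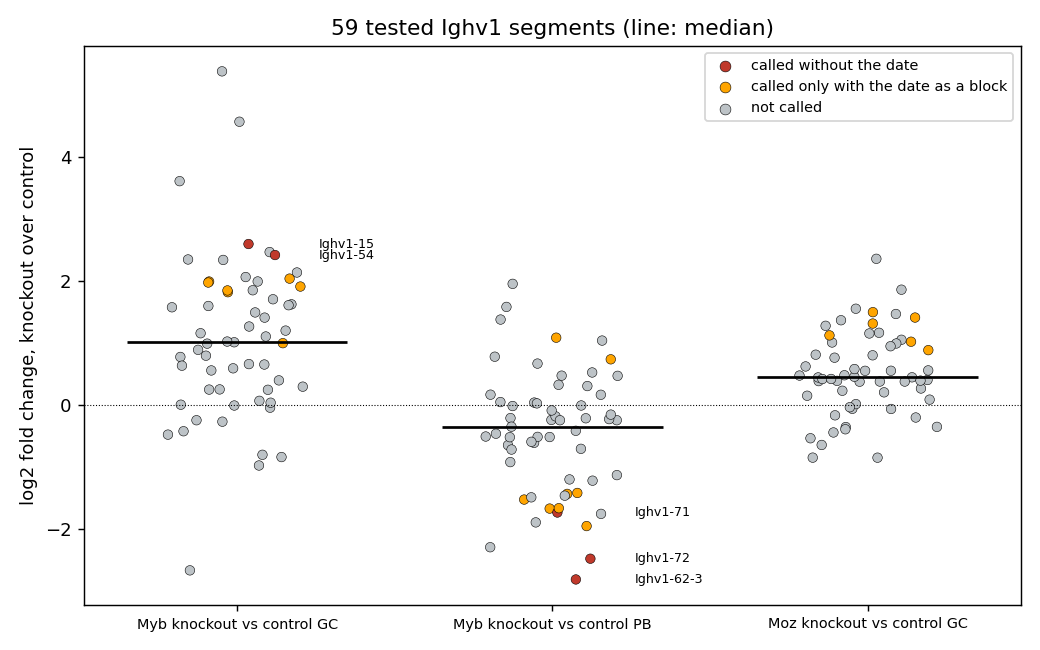
Log2 fold change (y axis, knockout over control, TMM scale) of the 59 tested Ighv1 segments in the 3 knockout comparisons (x axis); each point is a segment, spread sideways for legibility, and the black line is the median. Named red points were called without the date in the fit, orange ones only with it, and the medians lie at 1.02, -0.36 and 0.44.

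The Moz knockout gave no call among Ighv1 segments without the date block, where edgeR called 0 of 13131 genes (0.0%). Unadjusted, 15 of 59 members had an edgeR p under 0.05, as did 315 of all 13131 tested genes. DESeq2 called 4 members higher, with 0.0838% of all tested genes called higher. The median log2 fold was 0.44, with 46 of 59 positive, or 25 with library sizes set to the VH total, beside 0.61 for the other VH segments and -0.01 for all genes. Scaled CPM was higher in both knockout pools for 21 of 59 members, against 13.3% of all tested genes, and lower for 3 of 59, against 13.4%.

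With the block, edgeR called 6 Ighv1 members higher and 0 lower in Moz knockout GC, where 0.267% of all tested genes were higher and 0.0305% lower. They were Ighv1-76 (log2 fold 1.43, SE 0.19), Ighv1-15 (1.41, SE 0.14), Ighv1-7 (1.32, SE 0.14), Ighv1-59 (1.12, SE 0.19), Ighv1-18 (1.05, SE 0.15) and Ighv1-75 (0.89, SE 0.15). Ighv1-15 had 12.5 and 14.9 CPM in Moz knockout GC and 5.50 and 4.85 CPM in Moz control GC. Ighv1-76 had 56.2 and 30.2 CPM in Moz knockout GC and 15.3 CPM in each Moz control GC pool. For both segments the knockout pools lay above the control pools.

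Ighv1-72 did not pass the test in the Moz experiment (log2 fold 0.37, SE 0.30, edgeR adjusted p = 1.0). It had 44 and 58 counts in Moz knockout GC and 49 and 43 in Moz control GC. Its sum with Ighv1-62-3 held 0.134% and 0.123% of VH counts in Moz knockout GC and 0.150% and 0.122% in Moz control GC, and the groups overlapped. The plasmablast marker sum, again mostly Jchain, was 5965 and 7128 CPM in Moz knockout GC and 4589 and 4835 CPM in Moz control GC, with 0 of the 6 genes called.

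Between cell types, all 59 tested members were called higher in control PB than in control GC, where edgeR called 25.0% of all tested genes higher and 28.1% lower. The low-count filter ran over all groups, so members rare in Myb GC were tested because of their counts elsewhere. Filtered on the Myb GC libraries alone, 45 Ighv1 members passed. For the rest the direction was largely set by the filter, so the count of 59 is no separate evidence for them. The median log2 fold was 7.91, with 7.28 for the other VH segments and -0.17 for all genes. The 10 highest fitted folds among members whose mean log2 CPM reached 2 included those of Ighv1-23 and Ighv1-24, which had no count in control GC, so that their place among the 10 rests on the prior count. Against a floor of 3 counts in each control GC library they were at least 192-fold and at least 163-fold higher in control PB. The others were Ighv1-86, Ighv1-11, Ighv1-62-3, Ighv1-62-2, Ighv1-9, Ighv1-83, Ighv1-12 and Ighv1-72. Ighv1-72 was 403 and 353 CPM in control PB and 0.908 and 1.13 CPM in control GC (log2 fold 8.53, SE 0.37, edgeR adjusted p = 8.00e-08).

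Relative to the VH total, which shifted the median of all genes by -7.73, 8 members differed between control PB and control GC, 5 higher and 3 lower. Ighv1-62-3 held a larger share in control PB (log2 fold 1.76, SE 0.58, edgeR adjusted p = 0.00694), and Ighv1-72 had 0.96 (SE 0.48, edgeR adjusted p = 0.0600). The split between these near copies is uncertain. Their sum held 0.701% and 0.808% of VH counts in control PB and 0.310% and 0.354% in control GC. The others higher were Ighv1-9, Ighv1-12, Ighv1-23 and Ighv1-24, and Ighv1-67, Ighv1-5 and Ighv1-81 were lower. In that fit 96.4% of all tested genes were called lower and 0.137% higher, which makes the adjustment lenient.

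In Myb knockout cells, too, all 59 members were higher in PB than in GC, where 24.4% of all tested genes were higher and 27.2% lower, with a median log2 fold of 6.44 beside 6.35 for the other VH segments. The limit that the filter sets for members rare in GC holds here as well. The 10 largest folds by the same rule were those of Ighv1-43, Ighv1-53, Ighv1-42, Ighv1-47, Ighv1-22, Ighv1-66, Ighv1-71, Ighv1-76, Ighv1-78 and Ighv1-20. Those of Ighv1-43 and Ighv1-71 rest on few GC counts, with mean shares of 0.0208% and 0.0129% of VH counts in Myb knockout GC. The share of Ighv1-43 also differed 8.46-fold between the Myb knockout PB pools. Ighv1-72 had 80.3 and 54.5 CPM in Myb knockout PB and 0.754 and 0.342 CPM in Myb knockout GC (log2 fold 6.89, SE 0.36, or 7.58 without knockout GC pool 1), and its log2 fold relative to the VH total was 0.36 (SE 0.50, edgeR adjusted p = 0.493). Relative to that total, 4 members were called higher and 8 lower in Myb knockout PB than in Myb knockout GC, in a fit that called 0.16% of all tested genes higher and 96.7% lower. So large a share of calls makes the adjustment lenient there too. GC and PB libraries come from different days and dates, so cell type and date cannot be told apart.

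Rank relations of the fold with position and sequence were weak. Across 59 members, Spearman's rho between order along the chromosome and log2 fold was -0.04 in Myb knockout against control GC, -0.19 in PB and -0.08 in the Moz comparison. Identity to Ighv1-72 over the 58 other tested members gave 0.05, -0.01 and 0.16 in those 3 comparisons. These are descriptions over members that share libraries.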

How the data were processed

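The deposited values are whole-number read counts per Entrez gene. The submitters' processing notes name featureCounts and mm10 for these counts, and the deposited table has a column for each library. The aligner, the strand setting and the treatment of reads that match several places are not stated in the sources used here.

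RefSeq GRCm38.p6 gave a symbol for 25275 of 27179 IDs, and GENCODE M21 gave the VH sequences. Counts of the 12 libraries (8285934 to 24801297 each) were fitted together in edgeR 4.0.16 (R 4.3.3) with TMM factors, filterByExpr (minimum count 10, minimum total 15), the quasi-likelihood F test and 6 residual degrees of freedom. A call is a Benjamini-Hochberg adjusted p under 0.05 over 13131 genes. Levels are TMM-scaled CPM, and shares are counts over all Ighv counts. The script was tested on simulated data.

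Same-numbered pools share an experiment date or the same set of dates, per the labels, so the date or set was a block in a further fit (3 residual degrees of freedom). Within a pair, deviations from the group means correlated over all genes at 0.600 in Myb GC, 0.453 in Myb PB and 0.361 in Moz, and over Ighv1 at -0.09, 0.06 and 0.05. Same-numbered control PB and control GC pools, which share no date, gave 0.247 over all genes and -0.04 over Ighv1. Alternatives were DESeq2 1.42.0, other scalings, no filter, the compared groups alone and each pool left out. Identity and shares were computed with Python 3.11.15, Biopython 1.88, numpy 2.4.6, pandas 2.3.3 and scipy 1.17.1.

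The members, gene lists and tests were chosen with earlier results of these data known. Named segments are Ighv1-72, the 5 largest of each group, the called ones (at most 10 a direction), and those closest to Ighv1-72 in sequence or position. The 5 segments with a called interaction and a few others named for 1 pool or few counts were chosen after their values were seen. Depth limits rare segments most, such as Ighv1-72 in Myb GC pools.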

Additional observations from a re-analysis of the deposited data

Results flagged for a closer look

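A test of the difference between the Myb effects in plasmablasts and in GC B cells, with the experiment date as a block, passed for 5 Ighv1 segments (edgeR quasi-likelihood test). The difference of log2 folds, PB minus GC, was -2.52 for Ighv1-82 (SE 0.30, edgeR adjusted p = 0.00436) and -2.46 for Ighv1-54 (SE 0.33, edgeR adjusted p = 0.00916). It was -2.28 for Ighv1-15 (SE 0.23, edgeR adjusted p = 0.00134), -2.23 for Ighv1-59 (SE 0.30, edgeR adjusted p = 0.00916) and -1.69 for Ighv1-36 (SE 0.28, edgeR adjusted p = 0.0219). None of the 5 passed without the block, where the same differences were -2.57, -2.44, -2.29, -2.20 and -1.75. Also without the block, the difference was -0.89 for Ighv1-36 without Myb knockout GC pool 2 and -1.98 for Ighv1-82 without Myb control PB pool 1. Groups of 2 pools are too small to test for a pool far from the others. PB and GC pools share no date, so the cell type and the date cannot be told apart in these differences.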

How the results depend on the processing

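The number of Ighv1 segments called changed with the fit, and the VH total also changed the directions. Among named segments, 347 alternative values kept direction and side of the threshold, 76 newly passed it, 24 no longer did and 5 had the opposite sign. In Myb knockout against control GC, 2 segments were called, both higher. It was 22 (all higher) without the low-count filter, 12 (all higher) by DESeq2 and 9 (all higher) with the replicate block, in fits that called 1.72%, 1.23% and 2.42% of all tested genes. With the VH total it was 8 (2 higher, 6 lower) where 64.7% of all genes were called, and with the block and the VH total 18 (9 higher, 9 lower) where 78.7% were. It was 0 with the compared groups only and 0 to 2 with a pool left out. In Myb knockout against control PB, 3 were called, all lower. It was 22 (5 higher) without the filter, 9 (1 higher) by DESeq2, 11 (2 higher) with the replicate block and 14 (1 higher) with the block and the VH total, where 0.558%, 0.381%, 0.579% and 0.35% of all genes were called, 0 with the compared groups only, and 0 to 2 with a pool left out. In Moz knockout against control GC, 0 were called, and 10 without the filter (0.295% of all genes), 4 by DESeq2 and 6 with the replicate block, all higher. For the difference of the Myb effects it was 0, and 20 without the filter (0.729% of all genes), 8 by DESeq2, 5 with the replicate block and 1 with the block and the VH total (0.358%), all lower in PB, and 0 with any pool left out. With the VH total, control PB against control GC had 8 called (5 higher) and Myb knockout PB against Myb knockout GC had 12 (4 higher), in place of 59 each, all higher, and these fits called 96.5% and 96.9% of all genes.

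Opposite signs were found for Ighv1-7 in Myb GC with the VH total (-0.22, and -0.20 with the block too), for Ighv1-72 in Moz (-0.20 and -0.21), and for Ighv1-49 in Myb PB, which had -2.27 to 0.076 with a pool left out. The cause was not tested, apart from the shift of the median that the VH total brings by construction. With a pool left out, the lone pool is assumed to vary like the other groups. The pairing by date could not be used between PB and GC, which share no date, and among the Ighv1 segments and gene lists the replicate block changed no call beyond those given beside the results. The combined block and VH total, and the pools left out of the difference of effects, were chosen after seeing the data.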

Other observations

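Of 11 genes for factors of immunoglobulin expression, edgeR called 1 higher in Myb knockout GC (Prdm1), 2 with the date block (Prdm1 and Irf4), and 0 in Myb knockout PB or Moz knockout GC with or without it. Between control PB and control GC 5 were higher and 4 lower. The 4 pan B cell markers had 0 calls in the 3 knockout comparisons. Markers of other cell types were low throughout: the summed level over the 12 libraries was 3.14 to 8.75 CPM for T cells, 5.27 to 50.2 CPM for myeloid cells, 0.0 to 0.887 CPM for NK cells and 0.058 to 0.806 CPM for erythroid cells. None of the tested markers in these 4 lists was called in a knockout comparison (edgeR, with or without the block).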
